A study of Macaca radiata with 6 samples.

Results

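The genes described here encode the mitogen-activated protein (MAP) kinase cascade and the dual specificity phosphatases (DUSP) in corpus luteum (CL) tissue of bonnet monkeys, after a gonadotropin-releasing hormone (GnRH) receptor antagonist or vehicle. Members were taken by symbol: the numbered MAPK, MAP2K, MAP3K, MAP4K, MAPKAPK and DUSP names that stand alone at a probe set in the platform annotation. A probe set is the group of short oligonucleotides that reads one transcript on the array. Where a gene had several probe sets, the one brightest on average over the 6 arrays was used. Of 14132 genes named in this way, 51 were members, carried by 86 probe sets. They comprised 2 MAP4K, 13 MAP3K, 6 MAP2K, 6 MAPK, 3 MAPKAPK, 7 typical DUSP and 13 other DUSP genes, and MAP3K7CL, whose name follows the pattern although it encodes no kinase. No probe set carried the single symbol MAPK9, MAPK11, MAPK12 or MAP2K6, so that JNK2, p38 beta, p38 gamma and MKK6 were not analysed here, nor were DUSP2, DUSP6 and DUSP9.

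Adult female bonnet monkeys (Macaca radiata) were injected on day 7 of the luteal phase. The CET group received Cetrorelix, the GnRH receptor antagonist, subcutaneously at 150 µg/kg body weight, and the VEH group received 5.25% glucose. All CL were removed 24 h later. RNA of 3 CET samples (CET 1, 2 and 3) and 3 VEH samples (VEH 4, 5 and 6) was hybridised, 1 sample per array, to an Affymetrix array designed for the rhesus macaque, and the values are log2 signals after quantile normalization between arrays. According to the series' design text both treatments were applied to the same monkeys. Since no label ties a sample to an animal, no animal term could be used. P-values therefore measure the spread between these samples. The sources used here give no genotype and no age in years. Cetrorelix blocks pituitary GnRH receptors and so withdraws luteinizing hormone (LH), the hormone on which the primate CL depends, from the whole animal. The comparison asks which transcripts of the CL differ 1 day after that withdrawal begins.

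MAP kinases are the last step of a relay of kinases. Receptors and small GTPases engage a MAP3K such as RAF, often by way of a MAP4K, the MAP3K phosphorylates a MAP2K, and a MAP2K phosphorylates a MAPK on both a threonine and a tyrosine of its activation loop. MAP2K1 and MAP2K2 feed the ERK kinases, MAP2K3 and MAP2K6 feed the p38 kinases, MAP2K4 and MAP2K7 feed the JNK kinases and MAP2K5 feeds ERK5. The typical DUSP enzymes remove both phosphates again, and many of their genes are induced by the kinases that they switch off. In steroid-producing cells LH and its receptor engage ERK signalling beside cyclic AMP, and p38 and JNK are known as stress-responsive arms. The arrays read mRNA, not phosphorylation, so the values carry no reading of kinase activity.

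The tissue label was checked by luteal genes. STAR, which moves cholesterol into mitochondria, read 12.75 to 15.58 on all arrays and HSD3B2, which makes progesterone, read 13.53 to 14.87. CYP11A1 and LHCGR had no probe set of that symbol. CL tissue holds endothelial cells, pericytes, macrophages and fibroblasts beside steroidogenic cells, and in bulk RNA fewer cells of a type and less RNA per cell cannot be told apart. RNA quality differed between arrays. The ratio of 3' to 5' GAPDH control signal, which grows as RNA degrades, was 142.9 in CET 2. It was 5.89 and 3.03 in CET 1 and 3 and 1.79 to 7.31 in VEH. For the ACTB and EF1A controls it was 37.2 and 42.2 in CET 2, 22.4 and 9.56 in VEH 4 and 9.42 and 4.68 in CET 1. On the other arrays it was at most 3.96 for ACTB and 1.09 for EF1A. CET samples also spread more widely, with a median SD over genes of 0.739 in CET and 0.483 in VEH.

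For no kinase or phosphatase of the cascade did the difference between CET and VEH pass the test across all probe sets. None of the 51 members passed an adjusted p of 0.05 by limma (lowest adjusted p = 0.827), where 0% of all genes passed. Only DUSP7, with a lower mean, was below an unadjusted p of 0.05, which is 1.96% of members against 5.03% of all genes (3.01% lower, 2.02% higher) and 5.39% of all probe sets. The groups did not overlap for DUSP16 and MAP3K20, both lower after CET and 3.92% of members, against 11.5% of all genes (6.45% lower, 5.07% higher). Both shares lay below their background. The 95% interval of the difference spanned 0 for 50 members.

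The means lay more often below VEH than above it. After CET, 35 members (68.6%) had a lower mean and 16 (31.4%) a higher one, where 54.7% of all genes had a lower mean and 45.3% a higher one. The median difference in log2 signal, CET minus VEH, was -0.27 over the members and -0.08 over all genes. A mean lower by over 1.5-fold was found for 13 members (25.5%), close to the 24% of all genes. A mean higher by over 1.5-fold was found for 4 members (7.84%), DUSP29, DUSP18, MAPK10 and DUSP4, where the share of all genes was 18.6%. The difference was under 0.5 on the log2 scale in either direction for 31 members.

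The CET samples contributed unequally. The median deviation of members from their VEH mean was 0.06 in CET 1, -0.22 in CET 2 and -0.47 in CET 3, while the VEH samples lay between -0.01 and 0.01. Over all genes the same medians were 0.04, 0.04 and -0.16. CET 3 was the lowest of the 6 arrays in 18 members (35.3%; all genes 25.2%) and the highest in 3 (5.88%; all genes 16.6%). Without CET 3, 28 members had the lower mean (54.9%) and the median difference was -0.09, where 50.6% of all genes had a lower mean. Leaving out VEH 4 or VEH 6 gave 30 members with the lower mean (58.8%), where 53.7% and 55.4% of all genes had one. Leaving out any of the other samples gave 33 or 34.

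**Figure D1:**
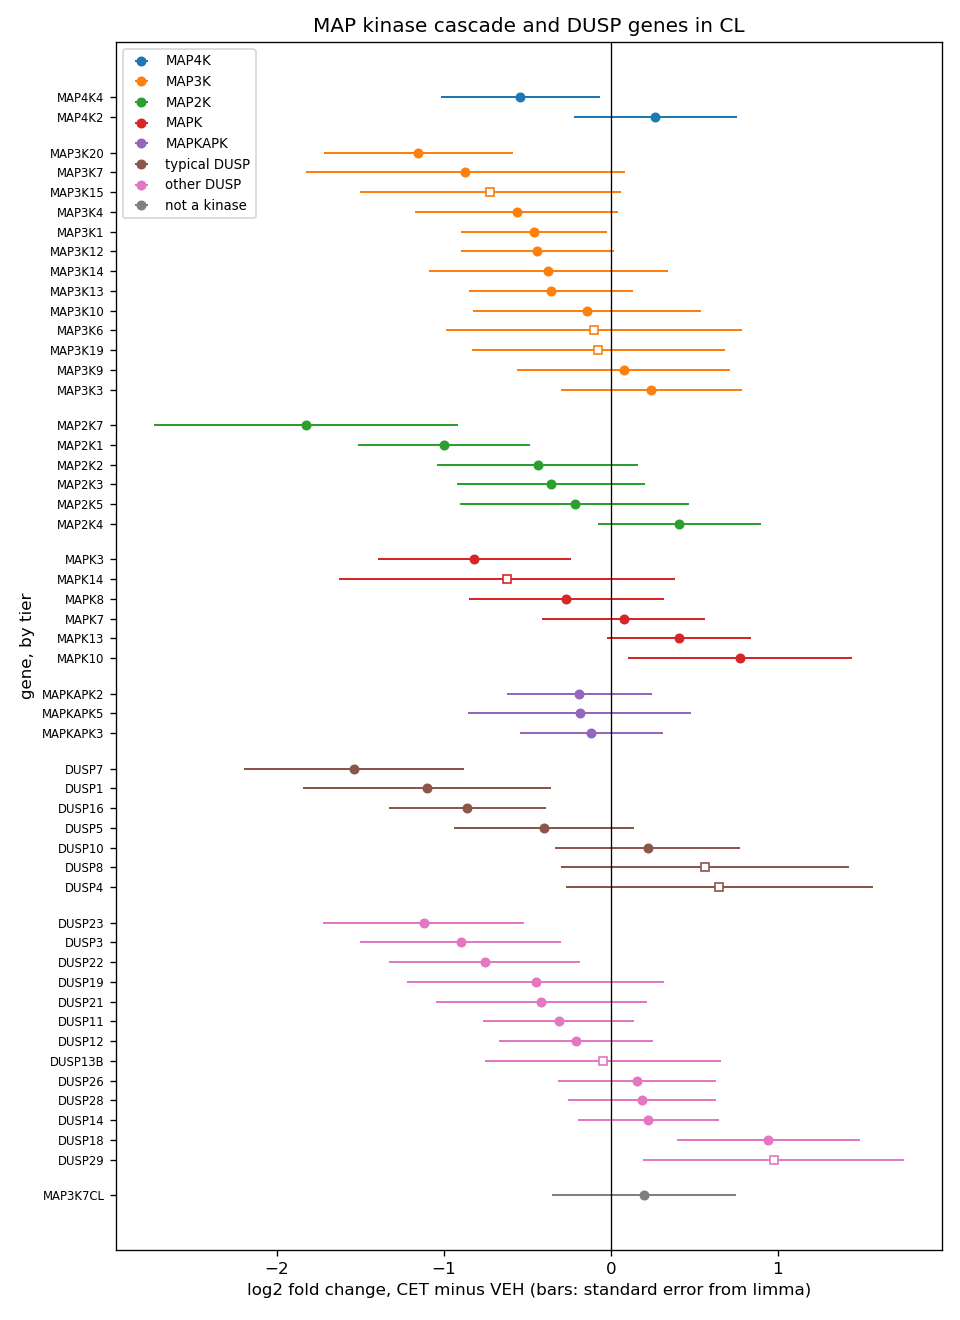
Difference in mean log2 signal, CET minus VEH, of all 51 members by tier of the cascade, with the standard error from limma as bars. Open squares mark the 8 genes whose mean signal lies under the dim limit; most points lie left of 0 and most bars reach it.

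Of the 51 members, 43 had a mean log2 signal above 7.43, the 40th percentile of all probe sets, under which a signal was called dim. The 8 dim members were DUSP4, DUSP8, DUSP13B, DUSP29, MAP3K6, MAP3K15, MAP3K19 and MAPK14, and their differences are between weak signals. MAP2K5, MAP3K1, MAP3K7, MAPK8 and MAPK14 were read at probe sets that the platform marks as matching more than 1 transcript, so that their signal may be shared.

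The first kinases of the relay gave mixed values. MAP4K4, a stress-linked kinase that acts towards JNK, read 11.37, 10.59 and 10.47 in CET 1, 2 and 3 against 10.54, 11.79 and 11.73 in VEH 4, 5 and 6, a difference of -0.54 (SE 0.48). VEH 4 lay within the CET range, and all 3 probe sets of the gene gave a lower mean. MAP4K2, a germinal centre kinase, read 9.62, 9.22 and 8.80 in CET and 8.72, 9.07 and 9.04 in VEH, with a difference of 0.27 (SE 0.49) and overlapping groups.

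Among the MAP3K genes, which receive most stress and cytokine inputs of the cascade, 11 of 13 had a lower mean after CET and 2 a higher one, with a median difference of -0.37 against -0.08 over all genes. Over the mean of all probe sets of a gene the tier was at -0.14 and all genes at -0.10, and without CET 3 the tier was at -0.58. No MAP3K passed an unadjusted p of 0.05 at its brightest probe set. MAP3K20, also called ZAK and known as a sensor of stalled ribosomes upstream of p38 and JNK, had the largest difference of the tier. Its log2 signals were 8.12, 9.21 and 7.51 in CET 1, 2 and 3, and 9.39, 9.43 and 9.48 in VEH 4, 5 and 6. Every CET sample lay below every VEH sample, although CET 2 came close to them. The mean was 2.22-fold lower after CET (log2 difference -1.15, SE 0.57, limma unadjusted p = 0.0655, adjusted p = 0.827). Without CET 2 the difference was -1.59, and without CET 3 it was -0.78. The dimmer probe set of the gene gave -0.60, with overlapping groups.

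MAP3K7, or TAK1, which couples cytokine receptors to JNK, p38 and NF-kappaB, varied widely between arrays. It read 5.30, 8.58 and 9.33 in CET and 8.26, 9.49 and 8.07 in VEH. CET 1 stood far below the other arrays and CET 2 and 3 lay within the VEH range. The difference of -0.87 (SE 0.95) turned to 0.36 without CET 1. The other probe sets gave 1.05 (SE 0.67) and -2.04 (SE 0.75, limma unadjusted p = 0.0189, adjusted p = 0.827). At both of these dimmer probe sets the groups did not overlap, in opposite directions.

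At their brightest probe sets, the remaining MAP3K genes lay within smaller differences. MAP3K4, which GADD45 proteins activate, differed by -0.56 (SE 0.61), with CET 3 at 7.35 and the other arrays from 8.56 to 9.27. MAP3K1, the MEKK1 kinase of the JNK pathway, differed by -0.46 (SE 0.44) and was lower at all 3 of its probe sets. The mixed-lineage kinases MAP3K9, MAP3K10, MAP3K12 and MAP3K13 differed by 0.08, -0.14, -0.44 and -0.36, each by less than its standard error. Dimmer probe sets of MAP3K13 gave -1.69 (SE 0.80), with groups that did not overlap, and 1.69 (SE 1.35). MAP3K14, the NIK kinase of non-canonical NF-kappaB signalling, differed by -0.37. The highest value of the tier was that of MAP3K3, or MEKK3, which acts on MAP2K5. It read 9.85, 9.65 and 8.43 in CET and 8.94, 8.79 and 9.47 in VEH, and its difference of 0.24 (SE 0.54) was within the spread of the groups. The dim MAP3K6 and MAP3K15, relatives of the stress kinase ASK1, and MAP3K19 gave -0.10, -0.72 and -0.07. MAP3K7CL, which resembles the C-terminal part of TAK1 and holds no kinase domain, differed by 0.20 (SE 0.55).

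**Figure D2:**
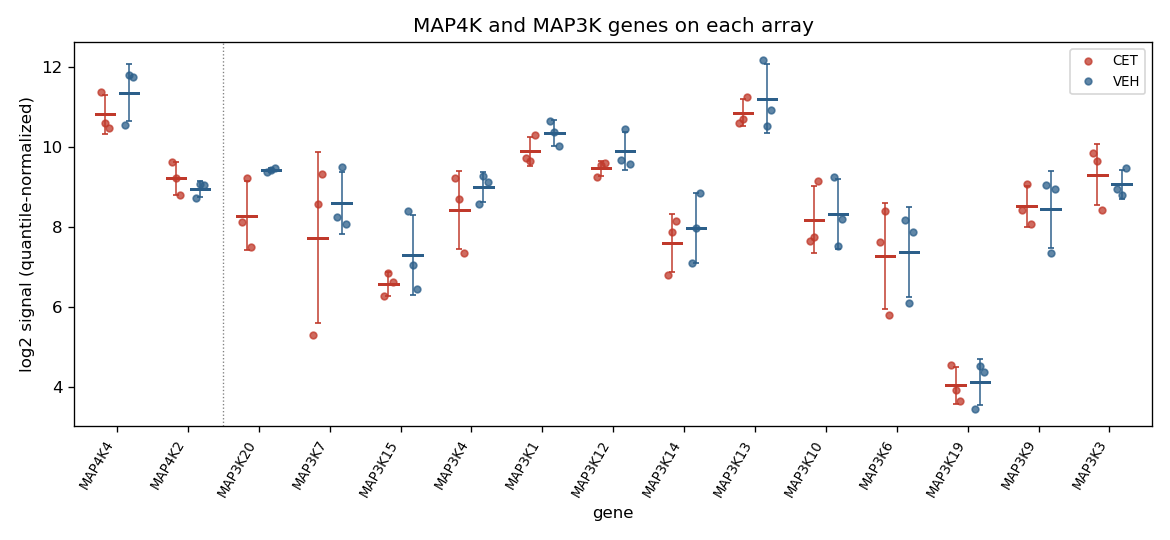
Quantile-normalized log2 signal of the MAP4K and MAP3K genes on each array (points, CET red and VEH blue), with group means (marks) and 1 SD of 3 samples (bars). The genes stand in order of their difference within each tier, and MAP3K20 is the gene whose 3 CET points all lie under the VEH points.

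In the MAP2K tier, 5 of 6 genes had a lower mean after CET and 1 a higher mean, with a median difference of -0.40 (-0.87 without CET 1). No MAP2K passed an unadjusted p of 0.05. The tier's median deviation from VEH was -0.26 in CET 1, -0.85 in CET 2 and -0.89 in CET 3.

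MAP2K7, or MKK7, which phosphorylates JNK kinases only, had the largest difference of all members. Its log2 signals were 7.57, 4.70 and 7.94 in CET 1, 2 and 3 and 9.53, 8.22 and 7.94 in VEH 4, 5 and 6. CET 2 was far below the others, and CET 3 equalled the lowest VEH sample to 2 decimals. The mean was 3.54-fold lower (log2 difference -1.82, SE 0.91, limma unadjusted p = 0.0696, adjusted p = 0.827), and the CET mean of 6.74 was under the dim limit. Without CET 2, whose 3' to 5' GAPDH ratio was 142.9, the difference was -0.79. It was -1.30 in the fit of all arrays with a covariate that averages the log2 ratios of GAPDH, ACTB and EF1A per array. The second probe set gave -0.22.

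MAP2K1, or MEK1, which phosphorylates ERK, read 9.63, 8.33 and 8.74 in CET and 9.89, 10.28 and 9.53 in VEH. CET 2 and 3 lay below all VEH samples, and CET 1 was above VEH 6. The mean was 2-fold lower (log2 difference -1.0, SE 0.51, limma unadjusted p = 0.0763, adjusted p = 0.827). It stayed lower under all 17 alternatives, from -1.40 to -0.71 when single samples were left out.

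MAP2K2, or MEK2, the second ERK kinase, read 10.73, 9.19 and 8.60 in CET and 10.52, 9.31 and 10.01 in VEH. CET 1 was the highest of the 6 arrays and CET 3 the lowest, so that the difference of -0.44 (SE 0.60) was within the CET spread and was 0.02 without CET 3. A second, dim probe set of MAP2K2 gave -1.36 (SE 0.84, limma unadjusted p = 0.132, adjusted p = 0.827), with every CET sample below every VEH sample. Over the mean of its probe sets MAP2K2 differed by -0.90. MAP2K3, or MKK3, which phosphorylates p38, read 10.26, 10.32 and 8.42 in CET and 10.27, 9.82 and 9.999 in VEH. Only CET 3 was below the VEH samples, and without it the difference of -0.36 (SE 0.56) became 0.28.

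MAP2K4, or MKK4, which acts on JNK and p38, was the member of its tier with a higher mean. It read 8.90, 9.89 and 9.93 in CET and 9.17, 9.21 and 9.10 in VEH, a difference of 0.41 (SE 0.49). CET 2 and 3 lay above the narrow VEH range and CET 1 below it. The JNK kinases MAP2K4 and MAP2K7 thus had means on opposite sides of VEH, and neither passed the test. MAP2K5, the ERK5 kinase, differed by -0.21 (SE 0.69) at a probe set that it may share.

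**Figure D3:**
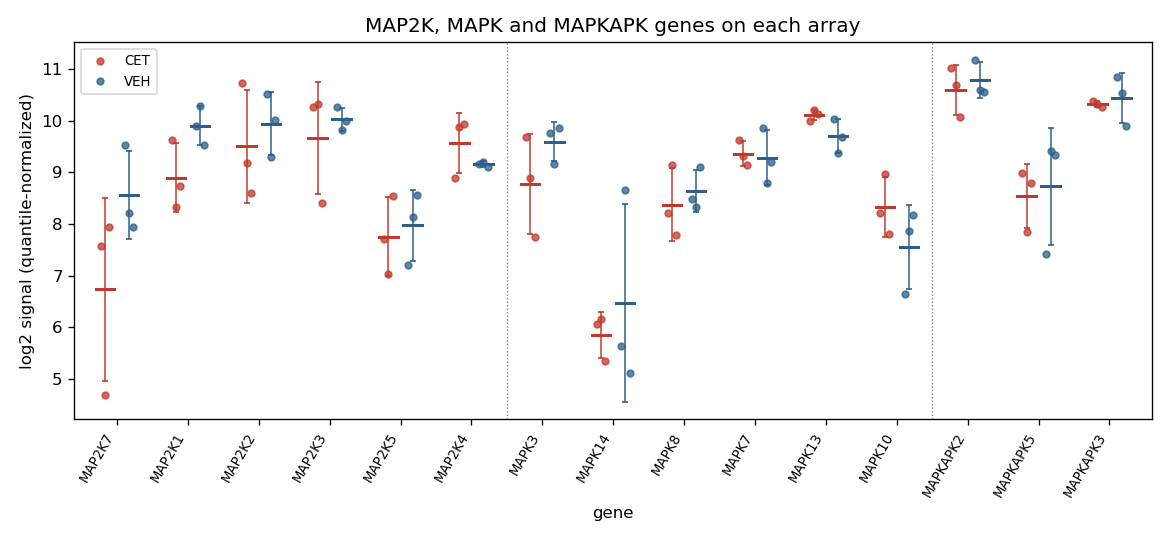
Quantile-normalized log2 signal of the MAP2K, MAPK and MAPKAPK genes on each array (points, CET red and VEH blue), with group means (marks) and 1 SD of 3 samples (bars). MAP2K7 has its lowest point in CET 2, far below the others, and the VEH mean of MAPK14 is set high by VEH 5. The group means of the 3 MAPKAPK genes lie close together.

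The 6 MAPK genes were split, with 3 lower and 3 higher means and a median difference of -0.09, near that of all genes (0.11 without CET 3, -0.27 without CET 2). The study followed phosphorylation of MAP kinases in CL lysates by immunoblot, and the transcripts of these kinases are given here whatever their values.

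MAPK3, or ERK1, read 9.68, 8.89 and 7.76 in CET 1, 2 and 3 and 9.76, 9.16 and 9.86 in VEH 4, 5 and 6. CET 1 lay within the VEH range, CET 2 and CET 3 below it. The mean was 1.76-fold lower (log2 difference -0.82, SE 0.58, limma unadjusted p = 0.183, adjusted p = 0.832). Without CET 3 the difference of MAPK3 was -0.31 and without CET 1 -1.30. The 3 genes of the ERK arm with a probe set, MAP2K1, MAP2K2 and MAPK3, all had a lower mean, with a median of -0.82. Leaving out 1 array moved it from -0.31 without CET 3, where MAP2K2 was at 0.02, to -1.30 without CET 1. Their median deviation from VEH was 0.08 in CET 1, -0.75 in CET 2 and -1.34 in CET 3, so that it came from 2 of the 3 samples.

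Of the p38 kinases, MAPK14 and MAPK13 were read. MAPK14, or p38 alpha, the main p38 kinase of most tissues, gave 6.07, 6.16 and 5.34 in CET and 5.65, 8.66 and 5.11 in VEH. All arrays but VEH 5 were under the dim limit at this probe set, which may also be shared, and VEH 5 alone set the difference of -0.62 (SE 1.01), since without it the value was 0.46. The array therefore gives little account of p38 alpha mRNA. MAPK13, or p38 delta, read 10.003, 10.21 and 10.13 in CET and 10.04, 9.38 and 9.69 in VEH. VEH 4 lay within the narrow CET range and VEH 5 and 6 below it, and the difference of 0.41 had an SE of 0.43. Of the 5 p38 arm genes with a probe set, 4 had a lower mean and 1 a higher mean, with a median of -0.19 that turned to 0.073 without CET 3 and to 0.013 without VEH 4.

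The JNK kinases read here were MAPK8 and MAPK10. MAPK8, or JNK1, gave 8.21, 9.15 and 7.78 in CET and 8.50, 8.34 and 9.10 in VEH, a difference of -0.27 (SE 0.58), and its other probe sets gave 1.16 and -1.05. MAPK10, or JNK3, the JNK best known from the nervous system, gave 8.22, 8.96 and 7.81 in CET and 6.64, 7.87 and 8.17 in VEH. Only VEH 4 was below the CET samples, the difference was 0.77 (SE 0.67), and the other probe sets gave 1.56 and -0.86. JNK arm genes had a median of 0.07 (-0.19 without CET 2, 0.29 without CET 1), with 2 lower and 2 higher means. MAPK7, or ERK5, differed by 0.08 (SE 0.49).

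The kinases that MAP kinases activate in turn all had slightly lower means, with a median of -0.18 (-0.40 without CET 1, 0.013 without VEH 4). MAPKAPK2, or MK2, the p38 effector that stabilises cytokine mRNAs, read 11.02, 10.68 and 10.08 in CET and 11.19, 10.60 and 10.56 in VEH, a difference of -0.19 (SE 0.43, 95% interval -1.14 to 0.76). MAPKAPK3, its close relative, differed by -0.12 (95% interval -1.05 to 0.82). MAPKAPK5, which the atypical MAP kinases use, differed by -0.18 (95% interval -1.65 to 1.28). These intervals still hold differences of more than 1.5-fold in both directions. A dimmer probe set of MAPKAPK5 gave -1.82 (SE 0.76, limma unadjusted p = 0.0351, adjusted p = 0.827), with groups that did not overlap. The dimmer probe sets of MAPKAPK2 gave 0.60 (SE 0.79) and -1.51 (SE 0.75). At the one with -1.51 the groups did not overlap (limma unadjusted p = 0.067, adjusted p = 0.827).

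Among the typical DUSP genes, whose products remove both phosphates from MAP kinases, 4 of the 7 with a probe set had a lower mean after CET and 3 a higher mean, with a median of -0.40. The median was -0.094 without VEH 6 and -0.11 without CET 2, where all genes were at -0.10 and -0.11, and -0.86 without the dim genes of the tier. DUSP7, also called PYST2 or MKP-X, a cytoplasmic phosphatase with a preference for ERK, was the only member below an unadjusted p of 0.05. Its log2 signals were 7.87, 7.50 and 8.93 in CET 1, 2 and 3 and 10.70, 9.69 and 8.52 in VEH 4, 5 and 6. CET 1 and 2 lay below every VEH sample, while CET 3 lay above VEH 6. The mean was 2.9-fold lower (log2 difference -1.54, SE 0.66, limma unadjusted p = 0.0389, adjusted p = 0.827). The difference was -1.02 without VEH 4 and -2.09 without VEH 6. It stayed under an unadjusted p of 0.05 without CET 3 or VEH 6 and not when any of the other 4 samples was left out. The second probe set of DUSP7 went the other way: it read 8.53, 9.18 and 8.96 in CET and 8.27, 7.62 and 8.26 in VEH, every CET sample above every VEH sample, a difference of 0.84 (SE 0.55). The difference for DUSP7 thus holds for 1 of its 2 probe sets.

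DUSP16, or MKP-7, a phosphatase of JNK and p38, had the most separated groups of the tier. It read 8.69, 8.85 and 8.45 in CET and 9.71, 9.51 and 9.35 in VEH. Every CET sample lay below every VEH sample, and the SD was 0.20 in CET and 0.18 in VEH. The mean was 1.81-fold lower (log2 difference -0.86, SE 0.47, limma unadjusted p = 0.0956, adjusted p = 0.827). Leaving out single samples gave -0.94 to -0.77. Its other, dim probe sets gave -0.34 and 0.21.

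DUSP1, or MKP-1, the nuclear phosphatase that many hormones and stresses induce within minutes, read 13.76, 9.99 and 12.20 in CET and 12.94, 13.29 and 13.01 in VEH. CET 1 was the highest of all arrays and CET 2 the lowest, with the VEH samples between. The difference was -1.10 (SE 0.74, limma unadjusted p = 0.165), and it was -0.11 without CET 2 and -1.93 without CET 1. CET 2 also had the 3' to 5' GAPDH ratio of 142.9. When the covariate that averages the log2 ratios of GAPDH, ACTB and EF1A entered the fit, the difference was -0.47. The part of RNA quality in this value was not tested further.

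DUSP5, a nuclear phosphatase of ERK, read 8.22, 9.03 and 8.50 in CET and 8.75, 8.61 and 9.59 in VEH, a difference of -0.40 (SE 0.54) with overlapping groups. DUSP10, or MKP-5, which acts on p38 and JNK, read 9.53, 8.22 and 8.85 in CET and 8.25, 8.87 and 8.82 in VEH, a difference of 0.22 (SE 0.55), and its second probe set gave -0.32. DUSP4 and DUSP8, at 0.65 and 0.56, were dim in both groups. DUSP4, an ERK-induced nuclear phosphatase, lay between 4.60 and 7.61 over the 6 arrays, and DUSP8, a phosphatase of JNK and p38, between 5.86 and 8.22.

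**Figure D4:**
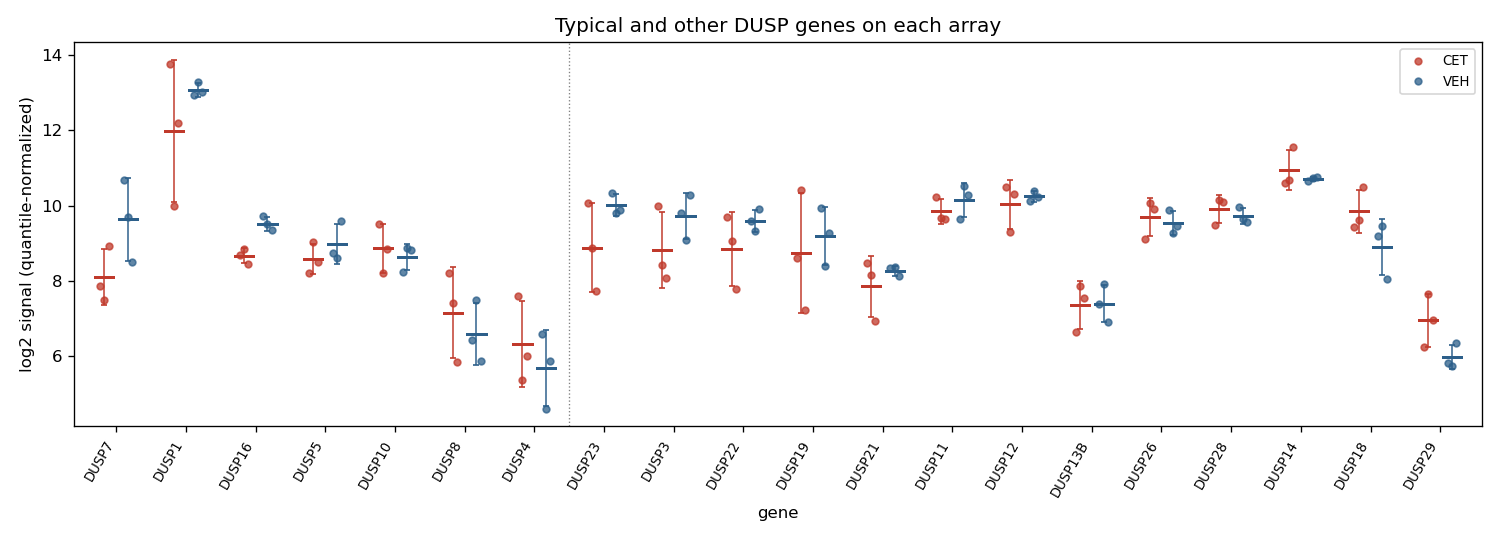
Quantile-normalized log2 signal of the typical DUSP genes (left of the dotted line) and other DUSP genes (right) on each array (points, CET red and VEH blue), with group means (marks) and 1 SD of 3 samples (bars). DUSP16 has CET points all under the VEH points, and the CET points of DUSP1 and DUSP19 spread over more than 3 log2 units.

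The other DUSP genes, small phosphatases that mostly lack the docking domain for MAP kinases, had 8 lower and 5 higher means, with a median of -0.21 (-0.079 without CET 3, -0.39 without CET 1). DUSP23, also called VHZ, had the lowest value of the tier. It read 10.07, 8.88 and 7.73 in CET and 10.34, 9.81 and 9.88 in VEH. CET 1 lay within the VEH range, and CET 2 and 3 below it. The difference was -1.12 (SE 0.60, limma unadjusted p = 0.0883, adjusted p = 0.827), or -0.55 without CET 3 and -1.75 without CET 1.

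DUSP3, or VHR, which can act on ERK and JNK, read 9.98, 8.42 and 8.08 in CET and 9.81, 9.08 and 10.28 in VEH, a difference of -0.90 (SE 0.60). DUSP22, or JKAP, which is linked to JNK signalling, read 9.69, 9.07 and 7.78 in CET and 9.58, 9.32 and 9.90 in VEH, a difference of -0.75 (SE 0.57). In both genes CET 1 lay within the VEH range and CET 2 and 3 below it, the order also seen in DUSP23 and MAPK3. Without CET 1, MAPK3, MAP2K1, DUSP1, DUSP3 and DUSP23 were all under an unadjusted p of 0.05 by limma (lowest adjusted p of a member 0.275), as were 16.3% of all genes.

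The highest value of a member that was not dim belonged to DUSP18, a phosphatase found in mitochondria. It read 9.43, 9.63 and 10.49 in CET and 9.20, 9.46 and 8.06 in VEH. CET 3 was the highest array and CET 1 lay just under VEH 5. The mean was 1.92-fold higher (log2 difference 0.94, SE 0.55, limma unadjusted p = 0.111, adjusted p = 0.827), and the second probe set gave 0.83 with groups that did not overlap. DUSP29, a muscle phosphatase, gave 0.98, the highest value of all members, from dim signals of 6.24, 7.66 and 6.95 in CET and 5.83, 5.75 and 6.34 in VEH. DUSP19, which binds JNK pathway kinases, spread from 7.23 to 10.42 within CET, and differed by -0.45 (SE 0.77). The other 7 genes, DUSP11, DUSP12, DUSP13B, DUSP14, DUSP21, DUSP26 and DUSP28, differed by -0.41 to 0.23, each by less than its standard error.

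Where a gene had several probe sets, these often disagreed. Of the 26 such members, 15 had the same direction at every probe set and 11 had both directions. The 15 included MAP2K2, MAP2K7, MAP3K1, MAP3K20, MAP4K4, MAPK13, DUSP1 and DUSP18. The 11 included DUSP7, DUSP10, DUSP16, MAP3K7, MAP3K13, MAPK8, MAPK10 and MAPKAPK2. The arrays were designed on rhesus sequence and hybridised with bonnet monkey RNA, and mismatches of single probes were not tested.

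**Figure D5:**
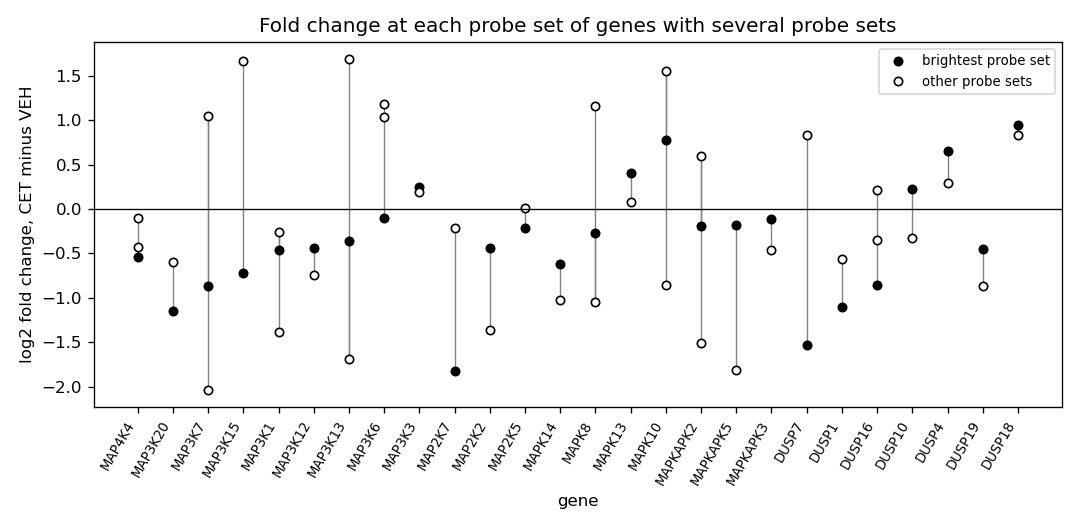
Difference in mean log2 signal, CET minus VEH, at each probe set of the 26 members with several probe sets. Filled points are the brightest probe set, used in the text, and open points are the others; 11 genes have points on both sides of 0.

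Around the cascade, 77 other genes in 6 lists of pathway parts were read. After CET the mean was lower for 47 (61.0%) and higher for 30 of them, with a median of -0.16. Of all genes, 54.7% had a lower mean, and their median was -0.08. By limma 6 were below an unadjusted p of 0.05, 4 lower and 2 higher, none passed an adjusted p of 0.05 (lowest 0.827), and 15 had groups that did not overlap. Over all genes, 711 of 14132 (5.03%) were below that unadjusted p, and 1628 (11.5%) had groups that did not overlap. The RAS and RAF inputs had 11 lower and 5 higher means (16 of 18 listed had a probe set; median -0.28). PTPN11, the SHP2 phosphatase that carries receptor signals to RAS, read 11.25, 10.28 and 11.30 in CET and 11.56, 12.10 and 12.06 in VEH, every CET sample below every VEH sample, a difference of -0.97 (SE 0.43). NF1, which switches RAS off, differed by 1.55 (SE 0.71) and MOS, a MAP3K of germ cells, by 1.11 (SE 0.51).

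Stress inputs had 9 lower and 7 higher means, with a median of -0.16, but 0.18 without CET 2. Of the 22 listed symbols 16 had a probe set, and ZAK, counted among those without, is the member MAP3K20. TAOK2, which activates the MAP2K enzymes of p38, read 11.47, 12.73 and 11.58 in CET and 11.23, 10.60 and 10.81 in VEH, every CET sample above every VEH sample, a difference of 1.05 (SE 0.45) that was 0.66 without CET 2. MINK1, a kinase related to MAP4K4, read 6.16, 9.82 and 7.30 in CET and 10.51, 8.83 and 10.36 in VEH, a difference of -2.14 (SE 0.86), with overlapping groups, that was -1.36 without CET 1 and -0.98 over the mean of its probe sets. TAB1, which binds TAK1 and p38 alpha, differed by 0.94 (SE 0.43).

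Feedback inhibitors and scaffolds had 7 higher and 5 lower means, with a median of 0.22, but -0.13 without CET 3. Of the 18 listed symbols, which may name a gene more than once, 12 had a probe set. SPRY4, an ERK-induced inhibitor of the RAS pathway, differed by -1.06 (SE 0.53), LAMTOR3, a scaffold of MEK1 and ERK1, by -1.02 (SE 0.54) and SH3RF1, a JNK scaffold, by -0.91 (SE 0.51). Effector kinases had 4 lower and 1 higher mean (5 of 8 listed; median -0.15), among them RPS6KA1, RPS6KA2 and RPS6KA6, ribosomal S6 kinases that ERK activates, at -1.11, -0.15 and 0.68. The phosphatases of MAP kinases that are not DUSP had 4 lower and 2 higher means (6 of 8 listed; median -0.70). PPM1A, PPM1B and PPP2CB, serine and threonine phosphatases, differed by -0.88 (SE 0.41), -1.09 (SE 0.52) and -0.93 (SE 0.47).

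Nuclear targets of MAP kinases had 14 lower and 8 higher means (22 of 30 listed; median -0.09, but 0.11 without CET 2). STAT3, a transcription factor of cytokine signalling, read 5.97, 5.49 and 5.49 in CET 1, 2 and 3 and 8.54, 8.65 and 8.39 in VEH 4, 5 and 6. Every CET sample lay below every VEH sample (log2 difference -2.87, SE 0.69, limma unadjusted p = 0.00147, adjusted p = 0.827). All CET values were under the dim limit, so that no fold is given. DDIT3, or CHOP, a transcription factor of the unfolded protein response that p38 phosphorylates, read 6.66, 6.33 and 6.21 in CET and 9.53, 8.60 and 8.70 in VEH. Its groups did not overlap either, the difference was -2.54 (SE 0.64, limma unadjusted p = 0.00211, adjusted p = 0.827), and its CET values were dim too. ETS1, a transcription factor that ERK phosphorylates, read 9.17, 9.51 and 9.11 in CET and 8.0, 8.49 and 7.15 in VEH, every CET sample above every VEH sample, a difference of 1.38 (SE 0.57) that was 0.07 over the mean of its probe sets. The early response genes FOS, JUNB and MYC differed by -0.07 (SE 0.60), -0.16 (SE 0.59) and -0.11 (SE 0.46). FOS read 10.59, 8.32 and 8.95 in CET and 9.24, 9.59 and 9.24 in VEH. IER2, EGR2 and ATF3 of the same list differed by -0.01 (SE 0.52), 0.24 (SE 1.03) and -0.69 (SE 0.54). JUN, FOSB, FOSL1, EGR1, EGR3 and IER3 had no probe set of that symbol.

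Marker levels of the cell types in the tissue also differed between arrays, and not all in the same ones. The 7 luteal steroidogenic markers had a mean log2 level of 13.29, 11.56 and 12.45 in CET 1, 2 and 3 and of 13.20 to 13.63 in VEH, and all 7 had a lower mean after CET. The 9 endothelial markers gave 10.49, 10.18 and 9.15 in CET and 10.16 to 10.41 in VEH, and 6 macrophage markers gave 9.75, 10.11 and 8.57 against 9.39 to 9.51. CET 3, in which members were lowest, had the lowest endothelial, macrophage, fibroblast and surface epithelium levels, while luteal levels were lowest in CET 2. Levels of 4 pericyte and smooth muscle markers (9.71 to 10.27 in CET, 9.69 to 10.24 in VEH) and of 3 lymphocyte markers (7.84 to 8.60 in CET, 7.52 to 9.30 in VEH) overlapped. Fibroblast markers, 6 of 7 listed, gave 10.73, 10.14 and 10.04 in CET and 10.57 to 11.11 in VEH, and 6 surface epithelium markers gave 7.42, 7.43 and 6.68 against 7.46 to 8.14. Of the markers with a probe set, KDR, CNN1, FAP, KRT19 and CDH1 were dim. The part of cell composition in the members' values was not tested.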

How the data were processed

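CL RNA of 3 CET and 3 VEH samples was hybridised to Affymetrix rhesus arrays. Each deposited intensity is a MAS 5.0 signal of a probe set, linear and scaled by the authors to a common trimmed mean per array. No detection calls were used, and the number of arrays limits the precision.

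Signals under 1 were set to 1, taken to log2 and quantile-normalized over all 52865 probe sets. The 158 controls were then dropped, which left 52707 for the test. The platform annotation gave 1 symbol for 24956, several for 361 and none for 27390, and only the first were named. The comparison used limma (version 3.58.1, R version 4.3.3) with a variance trend on intensity and no covariate, and p-values were adjusted by Benjamini-Hochberg over all probe sets. Differences are CET minus VEH in mean log2 signal. An exact permutation test of 3 against 3 samples cannot go below p = 0.1, so none was used. No gene set test was run.

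Members and lists were chosen with earlier results of these data known. Named genes are the kinases that the study followed and MAPK8, the typical DUSP genes, members at an unadjusted p under 0.05 or without overlap, the extremes of each tier, and up to 3 genes of each pathway list with the smallest p. The other members, their values, and FOS, JUNB, MYC, IER2, EGR2 and ATF3 were named after their values were seen. Alternatives were the deposited signals, array medians, cyclic loess, adding 16 before log2, flooring at the 20th percentile and no dim probe sets (under the 40th percentile). Others were limma without trend or with array weights, the methods' t-test, the mean over probe sets and leaving out each sample. The last was the 3' to 5' ratio as covariate, averaged in log2 over GAPDH, ACTB and EF1A on each array.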

Additional observations from a re-analysis of the deposited data

How the results depend on the processing

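No paired analysis was possible because the CET and VEH samples share no replicate numbers and no label ties a sample to an animal. Over 17 alternatives, 6 of which leave out a sample, no member passed an adjusted p of 0.05 by limma or by the methods' t-test, and the lowest was 0.275. The direction held under every alternative that gave a value for 26 members (16 lower, 10 higher) and turned under at least 1 for 25. The cause was not tested in any of these cases.

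Counts at an unadjusted p of 0.05 moved. The single member so called became 0 on the deposited signals, without the limma trend and over the mean of all probe sets, 3 with array medians subtracted (DUSP7, DUSP23 and MAP2K1) or with array weights (DUSP1, DUSP23 and MAP2K1), 2 with the array ratio of 3' to 5' signal as covariate (DUSP19 and MAP3K20), and 0 to 5 when a sample was left out, 5 of them without CET 1. Of all genes, 7.66% were so called with array medians subtracted, 11.05% with array weights, 5.12% with the covariate and 2.69% to 16.3% without a sample, the last without CET 1. A signal floor at the 20th percentile and the methods' t-test each called DUSP16 in place of DUSP7. For other pathway genes the count of 6 became 10 on deposited signals, 11 with array medians subtracted, 10 with the floor, 3 without the trend, 16 with array weights and 2 to 17 without a sample. Over all probe sets 2840 became 1756 without dim ones, 5086 with array weights and 1694 to 7020 without a sample.

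Median differences moved too. With array medians subtracted, which shifted the median of all genes from -0.08 to -0.20, they were -0.61 for MAP3K, -0.42 for other DUSP, -0.43 for RAS and RAF inputs, -0.28 for stress inputs and -0.34 for nuclear targets. Over the mean of all probe sets they were -0.14 for MAP3K (all genes -0.10), -0.17 for RAS and RAF inputs, -0.12 for feedback inhibitors and scaffolds and -0.36 for stress inputs. The covariate gave -0.70 for MAP2K and 0.14 for stress inputs, cyclic loess gave -0.13 for other DUSP, the floor 0.0042 for stress inputs, and without dim probe sets other DUSP were at -0.31 and feedback inhibitors at -0.079. Leaving out a sample gave MAP3K -0.58 to -0.27, MAP2K -0.87 to -0.30, other DUSP -0.39 to -0.079, RAS and RAF inputs -0.41 to -0.20, feedback inhibitors -0.13 to 0.43, stress inputs -0.23 to 0.18, effector kinases -0.36 to -0.044 nuclear targets -0.41 to 0.11, typical DUSP -0.56 to -0.094, the ERK arm -1.30 to -0.31 and the p38 arm -0.40 to 0.073. Without dim probe sets typical DUSP were at -0.86.

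The direction of a difference turned on the signals as deposited for DUSP13B 0.15, MAP3K10 0.10, MAP3K19 0.27 and MAP3K6 0.26 and with array medians subtracted for DUSP14 -0.14, MAP3K19 0.065 and MAP3K6 0.062. It also turned with that ratio as covariate for DUSP12 0.070, DUSP26 -0.0058, MAP2K5 0.26, MAP3K19 0.058, MAP3K9 -0.32, MAPK7 -0.080 and MAPKAPK5 0.35, over the mean of all probe sets of a gene for DUSP10 -0.051, MAP3K15 0.47 and MAP3K6 0.71, with array weights for DUSP13B 0.15 and MAP3K10 0.11. Leaving out a sample gave turned values within these ranges: DUSP10 -0.11 to 0.54, DUSP12 -0.45 to 0.16, DUSP13B -0.30 to 0.31, DUSP14 -0.079 to 0.38, DUSP19 -1.27 to 0.32, DUSP21 -0.73 to 0.047, DUSP26 -0.030 to 0.45, MAP2K2 -1.07 to 0.017, MAP2K3 -0.68 to 0.28, MAP2K5 -0.61 to 0.15, MAP3K10 -0.63 to 0.32, MAP3K13 -0.69 to 0.12, MAP3K14 -0.82 to 0.067, MAP3K19 -0.42 to 0.12, MAP3K3 -0.031 to 0.70, MAP3K6 -0.73 to 0.64, MAP3K7 -1.69 to 0.36, MAP3K9 -0.46 to 0.39, MAPK14 -1.30 to 0.46, MAPK7 -0.16 to 0.37, MAPK8 -0.64 to 0.035, MAPKAPK2 -0.40 to 0.073, MAPKAPK3 -0.38 to 0.092 and MAPKAPK5 -0.85 to 0.16. Without dim probe sets the 8 dim members drop out, and MAP3K19 has no value with the floor, where all 6 arrays are equal.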
